A study of Mus musculus with 23 samples.

Results

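The genes described here are the potassium, calcium and sodium ion channel genes of the mouse nucleus accumbens: every gene on the array whose symbol begins with Kcn (potassium channels), Cacn (voltage-gated calcium channels) or Scn followed by a digit (voltage-gated sodium channels). The rule found 60 genes of 8251 with a probe set listed for 1 gene, measured by 72 probe sets. Where a gene had more than 1 probe set (12 genes), that of highest mean over the arrays stands for it. By class they were 16 pore-forming subunits of voltage-gated potassium channels, 5 potassium auxiliary subunits, 11 inward rectifiers, 5 tandem-pore leak channels, 5 channels of the calcium- or sodium-activated family, 7 calcium alpha1 pores, 2 alpha2delta, 1 beta and 2 gamma calcium subunits, and 6 sodium pores; no sodium beta subunit was among them. The values came from 23 Affymetrix arrays, each hybridised with RNA from tissue labelled as a 4-way pool. Selective breeding of C57BL/6J x DBA/2J stock had produced the HMACT line, with a strong acute response to methamphetamine (MA), a dopamine-releasing stimulant, and the LMACT line, with a weak one. Each pool came from mice given either saline (0 mg/kg) or MA at 2 mg/kg, 1 h before the tissue was collected. There were 6 HMACT saline, 6 HMACT MA, 6 LMACT saline and 5 LMACT MA pools. The mean age of the HMACT pools ran from 77.25 to 154 days after saline and from 77.25 to 150 days after MA, and that of the LMACT pools from 61.5 to 127.5 and from 60 to 114.75 days. The labels do not say how many independent selections the lines stand for or whether pools shared animals, so each p-value here reflects only how far such pools vary, which may in part be technical.

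Voltage-gated sodium channels carry the rising phase of the action potential, potassium channels end it and set how fast a neuron can fire again, and calcium channels couple firing to transmitter release and to gene expression. Pore-forming subunits conduct the ions, and auxiliary subunits move the pores to the membrane and shape their gating. In the projection neurons that make up most of the nucleus accumbens, inward rectifier and A-type potassium currents hold the cells at a hyperpolarised resting potential and delay firing, and dopamine modulates several of these currents.

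Of the 60 genes, 46 had an entry in the RefSeq promoter table of assembly GRCm38.p6, and the 250 bases before the annotated start are shown for the 3 genes with the smallest p in the comparison of the lines, Kcnma1 (chr14:24004206-24004455, minus strand), Scn1a (chr2:66440838-66441087, minus strand) and Kcnd2 (chr6:21215096-21215345, plus strand). They are printed 5′ to 3′ on the gene's strand, and capitals mark GC boxes, the letters GGGCGG on either strand. No TGACG, the shorter form of the cyclic-AMP response element, lay in these windows on either strand.
Kcnma1: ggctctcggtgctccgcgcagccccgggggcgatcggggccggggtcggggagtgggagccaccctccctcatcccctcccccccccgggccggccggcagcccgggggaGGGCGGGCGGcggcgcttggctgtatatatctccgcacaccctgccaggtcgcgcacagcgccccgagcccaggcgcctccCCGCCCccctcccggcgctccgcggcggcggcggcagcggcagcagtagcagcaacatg
Scn1a: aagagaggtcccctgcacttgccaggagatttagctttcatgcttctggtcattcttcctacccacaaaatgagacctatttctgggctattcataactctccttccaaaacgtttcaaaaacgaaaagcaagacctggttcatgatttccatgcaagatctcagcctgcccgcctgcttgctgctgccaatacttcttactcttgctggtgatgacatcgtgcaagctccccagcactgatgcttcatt
Kcnd2: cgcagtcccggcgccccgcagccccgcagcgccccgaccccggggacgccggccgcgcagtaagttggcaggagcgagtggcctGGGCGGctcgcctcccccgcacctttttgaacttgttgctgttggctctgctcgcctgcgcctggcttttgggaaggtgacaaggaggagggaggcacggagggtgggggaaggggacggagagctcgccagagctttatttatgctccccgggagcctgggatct
The Kcnma1 window held 3 GC boxes, of which a pair overlap, and was 79.2% G and C, the Kcnd2 window held 1 and was 68.8% G and C, and the Scn1a window held 0 and was 46.8% G and C. Over the whole 300-base table window (250 before and 50 after the start), GGGCGG was present in 14 of the 23 channel genes that were above the floor and had an entry (60.9%), against 63% of the 6576 array genes with an entry. TGACG was present in 7 of those 23 (30.4%), against 33.1% of array genes. The full element TGACGTCA, which contains TGACG, was in 0 of the 23, against 3.16% of array genes. These matches are letters in a window, not measured binding sites.

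The deposited values are on a log2 scale inferred from their range, and 44.2% of all values lay under 2.3, taken here as the floor. Among the markers of striatal projection neurons, 6 of 12 listed genes were on the array, and Drd2, Penk, Tac1, Pdyn and Foxp1 were above the floor on every array while Rgs9 was above it on none. The cortical marker Tbr1 was also above the floor on every array (8.33 to 10.39), while Neurod6 was above it on 1 array. Its part in the results was not tested. Over the 5308 genes above the floor on at least 12 arrays, the first axis of variation within groups took 62.1% of the variance. The 4 arrays with the highest scores on it are called here the arrays that stand apart. They were HMACT saline replicates 3 (48.8) and 5 (25.7), HMACT MA replicate 3 (56.8) and LMACT MA replicate 4 (58.8). HMACT saline replicate 5 was not clearly separate, as HMACT MA replicate 2 followed at 18.2. The lowest score was -35.8, on HMACT saline replicate 6. Of the 4 chip lots in the labels, the first, lot A, held 15 arrays of all groups, lot B 1 array of each group, and lots C (3 arrays) and D (1 array), pooled here, also 1 of each group. In each HMACT group 3 of 6 pools had a mean age under 100 days, against 5 of 6 LMACT saline and 4 of 5 LMACT MA pools, so that line and age are in part confounded.

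Most of the channel genes were at or near the floor. On all 23 arrays 26 of the 60 (43.3%) were above the floor, 10 were above it on 1 or 2 arrays, and 24 (40.0%) on none. Over all 8251 genes, 61.7% were above the floor on all arrays and 25.3% on none. In tissue of mixed cells a low signal can come from few cells that use the gene, little RNA in each, or a probe set that reads poorly. These cannot be told apart. For Kcna5 and Scn8a the second probe set was above the floor on 0 arrays, while the first averaged 7.47 and 5.70. A value at the floor is therefore not taken as absence of the RNA. Of the 26 measured genes, Cacna1e, Kcna4 and Kcnj8 held 1 and the same value (tolerance 1e-06) on 17, 17 and 19 arrays, so that the log2 values of 23 genes varied over most arrays. The share with 12 or more arrays at 1 value was 11.5% among these 26 genes and 11.5% among the 5308.

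**Figure D1:**
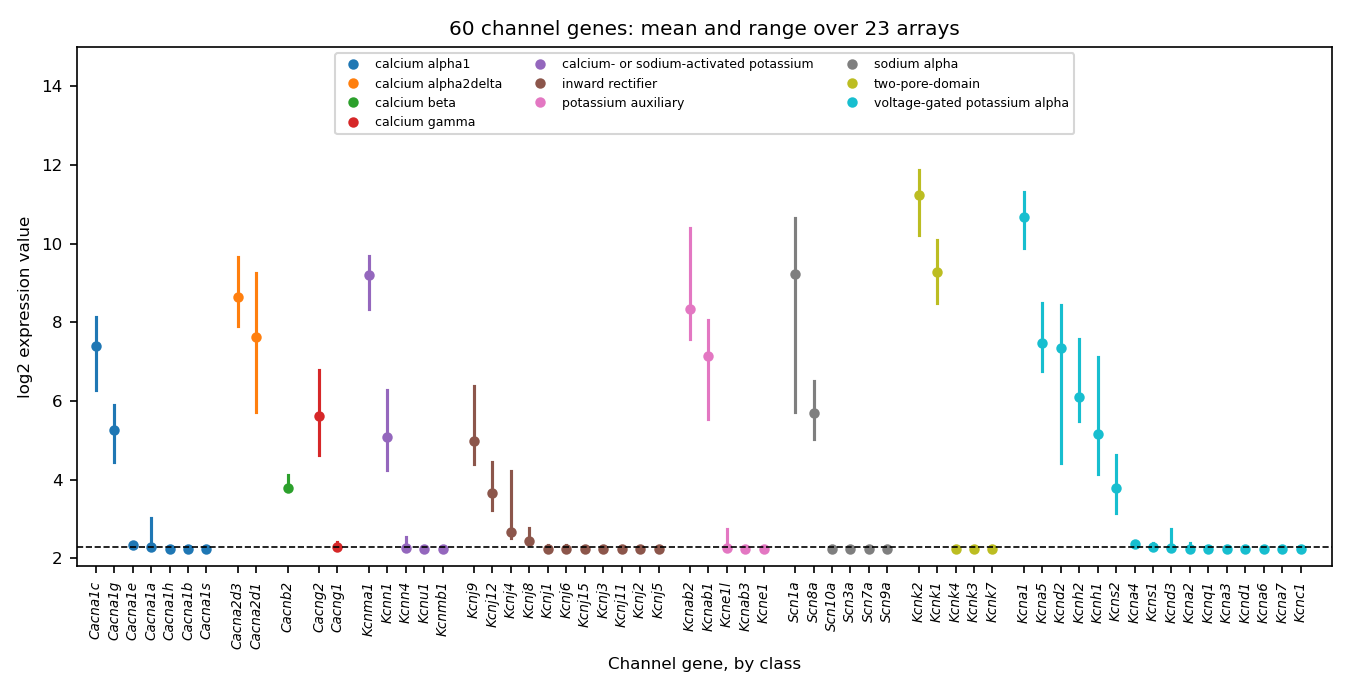
Mean (point) and lowest to highest log2 expression value (line) over 23 arrays for each of 60 channel genes, ordered and coloured by class. The dashed line marks the floor of 2.3; 26 genes lie above it on every array and 34 have their mean under it.

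Among the voltage-gated potassium pores, 7 of 16 were above the floor on all arrays. Kcna1, a low-threshold axonal channel, ranged from 9.89 to 11.31 over the 23 arrays, Kcna5 from 6.76 to 8.50, Kcnd2, which carries somatodendritic A-type current, from 4.42 to 8.44, the ether-a-go-go family channels Kcnh2 from 5.48 to 7.58 and Kcnh1 from 4.14 to 7.12, and Kcns2, a silent subunit that modifies other pores, from 3.15 to 4.62. Kcna4, an A-type pore, stayed at 2.36 to 2.44. Kcns1, Kcnd3 and Kcna2 were above the floor on 1 or 2 arrays, and Kcnq1, Kcna3, Kcnd1, Kcna6, Kcna7 and Kcnc1 on none. The median of the 6 varying pores on each array averaged 6.55 ± 0.51, 6.45 ± 0.15, 6.48 ± 0.15 and 6.72 ± 0.35 (mean ± SD) in the HMACT saline, HMACT MA, LMACT saline and LMACT MA pools, in that order, and every pair of groups overlapped. The same held in each of the other classes described next.

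Of 5 potassium auxiliary genes, the cytoplasmic beta subunits Kcnab2 (7.58 to 10.39) and Kcnab1 (5.55 to 8.07) were measured, while Kcne1l was above the floor on 1 array and Kcnab3 and Kcne1 on none. Of 11 inward rectifiers, 4 were measured. They were Kcnj9, a G protein-gated subunit (4.41 to 6.39), Kcnj12 (3.23 to 4.44) and Kcnj4 (2.52 to 4.22), pores of strongly rectifying channels, and Kcnj8, a pore of ATP-sensitive channels (2.42 to 2.77). Kcnj1 and Kcnj6 were above the floor on 2 arrays each, and Kcnj15, Kcnj3, Kcnj11, Kcnj2 and Kcnj5 on none. The class medians over the measured, varying genes, in the same order of groups, averaged 7.74 ± 0.24, 7.58 ± 0.12, 7.83 ± 0.26 and 7.82 ± 0.16 for the auxiliary subunits. For the inward rectifiers they averaged 3.84 ± 0.31, 3.61 ± 0.13, 3.58 ± 0.075 and 3.74 ± 0.46.

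The leak channels Kcnk2, which responds to stretch and to lipids (10.23 to 11.88), and Kcnk1 (8.50 to 10.10) were measured, and Kcnk4, Kcnk3 and Kcnk7 were above the floor on none of the arrays. Their class median averaged 10.27 ± 0.26, 10.28 ± 0.19, 10.26 ± 0.09 and 10.18 ± 0.39. In the family of activated potassium channels, Kcnma1, the pore of the large-conductance calcium-activated channel (8.34 to 9.67), and Kcnn1, a small-conductance calcium-activated channel of the after-hyperpolarisation (4.25 to 6.29), were measured. Kcnn4 was above the floor on 2 arrays, and Kcnu1 and Kcnmb1 on none. Their class median averaged 7.16 ± 0.18, 7.09 ± 0.20, 7.08 ± 0.13 and 7.26 ± 0.23, while the line differences of its 2 genes had opposite signs.

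Among the calcium channels, the L-type pore Cacna1c (6.28 to 8.14), the T-type pore Cacna1g (4.45 to 5.91) and the R-type pore Cacna1e (2.33 to 2.38) were above the floor. The P/Q-type pore Cacna1a exceeded it on 1 array, and Cacna1h, Cacna1b and Cacna1s on none. Both alpha2delta genes, Cacna2d3 (7.91 to 9.67) and Cacna2d1 (5.73 to 9.25), Cacnb2 (3.70 to 4.12) and Cacng2, which encodes the AMPA receptor partner stargazin (4.63 to 6.79), were measured, and Cacng1, a muscle subunit, exceeded the floor on 1 array. The class medians averaged 6.25 ± 0.36, 6.28 ± 0.22, 6.27 ± 0.16 and 6.56 ± 0.19 for the pores and 8.09 ± 0.52, 7.97 ± 0.50, 8.33 ± 0.33 and 8.10 ± 0.66 for alpha2delta.

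Of 6 sodium pores, Scn1a (5.72 to 10.64) and Scn8a (5.05 to 6.498), which carry fast currents of the axon initial segment, were measured, Scn10a exceeded the floor on 1 array, and Scn3a, Scn7a and Scn9a on none. Their class median averaged 7.10 ± 0.67, 7.22 ± 0.78, 7.96 ± 0.15 and 7.58 ± 0.74. The 10 genes seen on 1 or 2 arrays gave 15 values over the floor, 7 of them in HMACT saline, 4 in HMACT MA, 1 in LMACT saline and 3 in LMACT MA pools. Of these, 4 came from the arrays that stand apart. The highest was Cacna1a at 3.04 on HMACT saline replicate 3, and 4 exceeded 2.5. Over all 23 varying channel genes the median on each array averaged 6.67 ± 0.21, 6.75 ± 0.36, 7.11 ± 0.12 and 6.88 ± 0.47, and HMACT saline (6.39 to 6.88) lay below LMACT saline (6.97 to 7.29). The median of the 23 fitted differences after saline had the opposite sign, 0.12, with 14 of 23 genes higher in HMACT.

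The first comparison asks whether channel transcripts differ 1 h after MA. With limma and adjustment over all 8251 genes, 0 of 60 channel genes passed an adjusted p of 0.05 for MA minus saline averaged over the lines, against 0.0242% of all genes (2). At an unadjusted p under 0.05 there was 1 channel gene, Scn8a, against 1.5% of all genes. Of the 26 measured channel genes 12 had values higher and 14 lower after MA, and the median difference was -0.0038 against -0.0038 over 5308 genes. The intervals bound what could have been missed: for 21 of the 23 varying genes the 95% interval lay within 1 log2 unit of 0, for 12 within 0.5, and only Cacna2d1 and Scn1a had wider ones. By class, 3 of 7 voltage-gated pores, 0 of 2 auxiliary subunits, 3 of 4 inward rectifiers, 1 of 2 leak channels, 1 of 2 activated potassium channels, 3 of 3 calcium pores, 0 of 2 alpha2delta subunits and 0 of 2 sodium pores had a higher mean after MA, as did the beta subunit but not the gamma subunit. These counts include Cacna1e (0.0034), Kcnj8 (0.032) and Kcna4 (-0.0081), which held 1 value on most arrays.

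The lowest p belonged to the sodium pore Scn8a. Across the HMACT pools Scn8a read 5.68 to 6.498 (median 5.86) after saline and 5.06 to 5.83 (median 5.50) after MA. Across the LMACT pools it read 5.34 to 5.85 (median 5.74) after saline, and 5.74, 5.81, 5.78, 5.05 and 5.83 on the 5 arrays after MA. The groups overlapped, and 1 LMACT MA pool (replicate 5) lay below the other 4. Averaged over the lines MA minus saline was -0.26 (SE 0.119, 95% interval -0.51 to -0.0087; limma unadjusted p = 0.0432, adjusted p = 1), with 7 of 11 MA pools below the mean of their saline group. In HMACT alone it was -0.46 (limma unadjusted p = 0.0111, adjusted p = 1), and in LMACT alone -0.054 (limma unadjusted p = 0.758, adjusted p = 1). Without the 4 arrays that stand apart the average was -0.19, and within lots A, B and C with D it was -0.33, -0.25 and -0.033. The average was -0.056 with array weights, -0.17 in pools under 100 days and -0.13 over the mean of all its probe sets. The other probe set of Scn8a held the same value, under the floor, on every array. The mean over probe sets therefore shrank the difference by construction and is not a separate measurement of it. The HMACT difference was -0.17 with array weights, -0.24 in pools under 100 days and -0.29 without the 4 arrays. Over the mean of the probe sets it was -0.23, shrunk in the same way.

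Cacna1g, the T-type calcium pore that supports burst firing, followed. Cacna1g values after saline were 4.45 to 5.70 (median 5.27) in HMACT and 5.01 to 5.26 (median 5.16) in LMACT pools. After MA they were 4.83 to 5.66 (median 5.17) in HMACT pools, and 5.56, 5.33, 5.53, 5.91 and 5.51 in the 5 LMACT pools. All 5 LMACT MA pools were above all 6 LMACT saline pools, while the HMACT groups overlapped. It was the 1 gene of 23 varying channel genes without overlap of the LMACT groups, against 1.04% of 5308 genes. Between the HMACT groups, 0 of 23 were without overlap, against 0.17%. The difference averaged over lines was 0.21 (SE 0.13, 95% interval -0.066 to 0.48; limma unadjusted p = 0.129, adjusted p = 1), with 8 of 11 MA pools above the mean of their saline group. It was 0.41 (limma unadjusted p = 0.0407, adjusted p = 1) in LMACT and -0.00055 (limma unadjusted p = 0.998, adjusted p = 1) in HMACT. Within lots A, B and C with D the LMACT difference was 0.42, 0.30 and 0.52. The values of lot B and of C with D each came from a single pair of arrays. In C with D the pair set a lot C saline array against a lot D MA array, which stands apart. With array weights the LMACT difference was 0.27. The average over lines was 0.087 with array weights and 0.13 without HMACT saline replicate 6.

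Kcnh2, an ether-a-go-go family channel best known for repolarising heart muscle, had the largest difference in LMACT among the 3 measured channel genes named for that comparison by rank of p. Scn1a, not among the 3, differed more in size (-0.70). In the HMACT saline pools Kcnh2 read 5.48 to 7.58 (median 5.93), and in the HMACT methamphetamine pools 5.62 to 7.05 (median 5.89). The LMACT saline pools read 5.56 to 5.89 (median 5.73), and the 5 LMACT methamphetamine pools 6.57, 5.61, 7.15, 6.69 and 5.89. Replicate 4, which stands apart, was the highest of the LMACT MA pools. MA minus saline in LMACT was 0.66 (limma unadjusted p = 0.0652, adjusted p = 1), and 0.47 without the 4 arrays and 0.19 with array weights. Within lots A, B and C with D it was 0.42, 0.69 and 1.28. In HMACT it was -0.16 (limma unadjusted p = 0.614, adjusted p = 1). Kcnn1 in LMACT differed by 0.39, and by 0.12 without the 4 arrays or without LMACT MA replicate 4 alone, which is 1 of them. The remaining genes with the smallest p in the average over lines, Kcna4 (-0.0081), Kcnj8 (0.032), Cacna1e (0.0034), Kcnn1 (0.15), Kcnj4 (-0.11), Kcnh1 (-0.18) and Cacna2d1 (-0.24), had adjusted p = 1 with limma, and the sign turned for Kcnn1 and Cacna2d1 with array weights and in pools under 100 days, and for Kcnj4 without HMACT saline replicate 3. Leaving out a single array moved each of these averages by over 1.5 times. Without LMACT MA replicate 4 the average was 0.016 for Kcnn1, -0.01 for Cacna2d1 and -0.32 for Kcnh1, and Kcnh1 was -0.03 without HMACT saline replicate 3. Kcnj8 was 0.0034 without HMACT MA replicate 3, Kcna4 -0.002 without HMACT saline replicate 4, and Cacna1e 4.0e-05 without HMACT MA replicate 6.

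Within HMACT, 0 of 60 channel genes passed the adjusted threshold of limma, against 0.0121% of all genes (1). At an unadjusted p under 0.05 there were 3, Scn8a and the floor-level genes Kcna2 and Kcnj6, against 1.55%. Within LMACT the count was 0 against 0.0% of all genes, with 1 at an unadjusted p under 0.05, Cacna1g, against 3.33%. For the difference between the lines in their response to MA, the count was 0 against 0.0%, and 0 against 2.62% at an unadjusted p under 0.05. Its lowest p values were those of Kcnh2 at -0.82 (limma unadjusted p = 0.0926, adjusted p = 0.86), Scn8a at -0.41 (limma unadjusted p = 0.103, adjusted p = 0.86) and Kcnab2 at -0.94 (limma unadjusted p = 0.108, adjusted p = 0.86). Leaving out the 4 arrays gave -0.38, -0.21 and -0.43 for these genes, and array weights -0.33, -0.22 and -0.42. The interval of this difference lay within 1 log2 unit of 0 for 11 of 23 varying genes, and the other 12 were not bounded to that size.

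**Figure D2:**
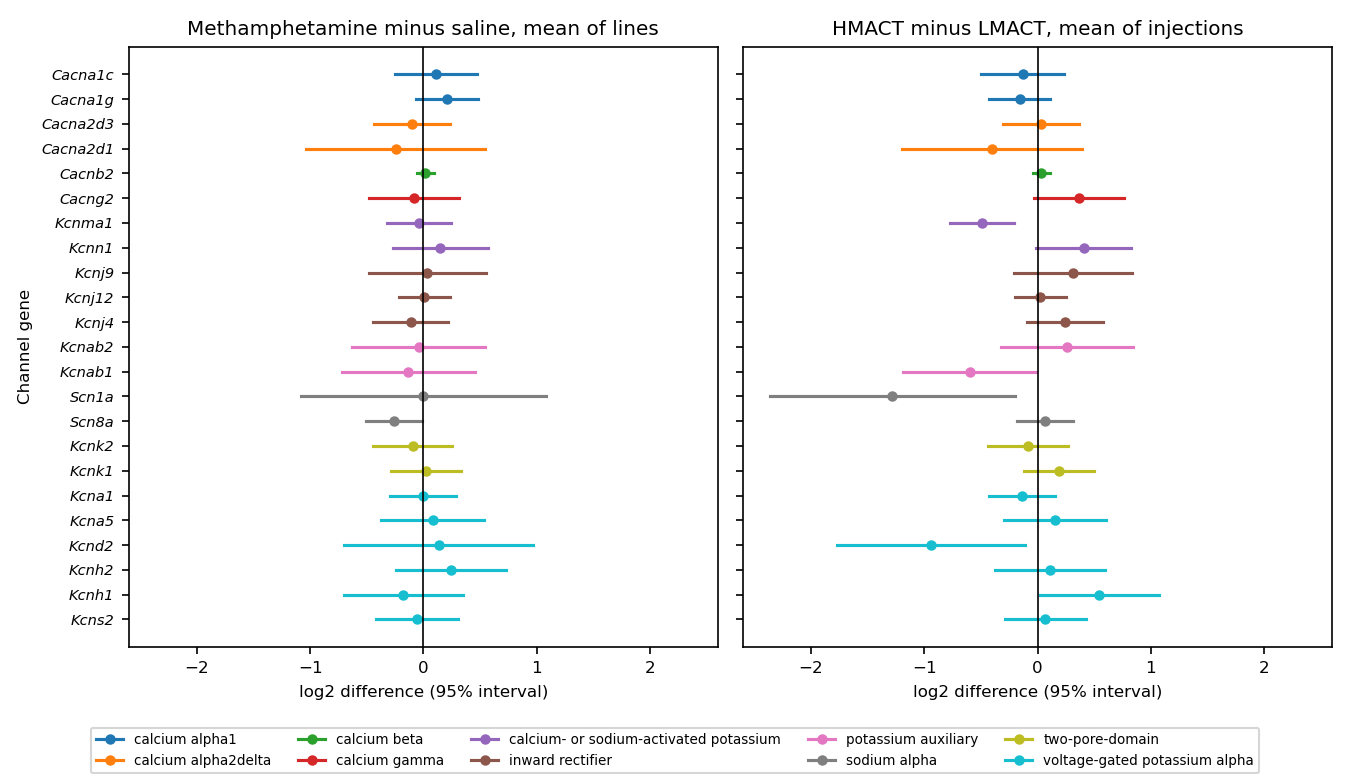
Fitted log2 difference (point) with its 95% interval (line) for 23 channel genes, MA minus saline averaged over lines (left) and HMACT minus LMACT averaged over injections (right), coloured by class. On the left only the Scn8a interval leaves out 0, at -0.26; on the right those of Kcnma1, Scn1a, Kcnd2, Kcnh1 and Kcnab1 do, and none passed adjustment over all genes.

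The second comparison asks how the selected lines differ. Kcnma1, Scn1a, Kcnd2 and Kcnab1 had lower means in HMACT and Kcnh1 and Kcnn1 higher ones, but 0 of 60 channel genes passed an adjusted p of 0.05 in limma for HMACT minus LMACT averaged over injections, against 0.194% of all genes (16). At an unadjusted p under 0.05 there were 5, Kcnma1, Scn1a, Kcnd2, Kcnh1 and Kcnab1, against 12.7% of all genes. Among genes above the floor the shares were 19.2% of 26 channel genes and 19.3% of 5308 genes. Higher means in HMACT were found for 17 of the 26 and lower ones for 9, with a median difference of 0.029 against 0.0038 over 5308 genes. Cacna1e, Kcna4 and Kcnj8, which held 1 value on most arrays, all counted as higher. Among the 23 varying genes 14 were higher, and among the 5308 genes 51.0%. All 4 inward rectifiers, 5 of 7 voltage-gated pores, 1 of 3 calcium pores, the beta and gamma subunits, and 1 of 2 genes in each remaining class had a higher HMACT mean.

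Marker genes of cell types were compared between the lines in the same fit. Of 37 marker genes above the floor, 0 passed the adjusted threshold of limma for HMACT minus LMACT. At an unadjusted p under 0.05 there were 9, against 19.3% of 5308 genes. Of these 9, lower HMACT means were found for the oligodendrocyte gene Mobp (-0.80; limma unadjusted p = 0.000551, adjusted p = 0.117), the interneuron genes Pvalb (-0.87) and Gad1 (-0.27), the projection neuron gene Foxp1 (-0.72), the astrocyte gene Gja1 (-0.45) and the endothelial gene Tek (-0.16). Higher means were found for the microglial C1qb (1.03), the synaptic vesicle gene Syp (0.90) and the astrocyte gene S100b (0.38). By list, HMACT means were higher for 2 of 5 projection neuron, 4 of 6 pan-neuronal, 2 of 4 interneuron, 2 of 5 astrocyte, 0 of 4 oligodendrocyte, 3 of 5 microglial and 2 of 4 endothelial genes. The log2 of the summed oligodendrocyte signal was 12.42 to 13.07 in the HMACT saline, 12.04 to 13.11 in the HMACT MA, 12.83 to 13.44 in the LMACT saline and 13.12 to 13.55 in the LMACT MA pools, with overlap of the lines after saline, but HMACT MA lying below LMACT MA. The summed astrocyte signal did the same, at 13.09 to 13.40 in the HMACT MA and 13.49 to 14.07 in the LMACT MA pools. Among 5308 single genes, 0.81% were without overlap of the lines after MA. The part of these markers in the line differences of channel genes was not tested.

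Kcnma1 encodes the pore of the large-conductance potassium channel opened by voltage and calcium together. Across the HMACT pools Kcnma1 read 8.47 to 9.55 (median 8.95) after saline and 8.34 to 9.45 (median 9.06) after MA. Across the LMACT pools it read 9.30 to 9.66 (median 9.42) after saline, and 9.53, 9.53, 8.91, 9.56 and 9.67 on the 5 arrays after MA. In 11 of 12 HMACT pools Kcnma1 was below the LMACT median, but the lines overlapped. HMACT saline replicate 1 and the highest HMACT MA pool (9.45) lay among the LMACT saline values. LMACT MA replicate 4 lay among the HMACT values. HMACT minus LMACT was -0.49 (SE 0.135, 95% interval -0.78 to -0.21; limma unadjusted p = 0.00165, adjusted p = 0.181). The difference was -0.49 (limma unadjusted p = 0.0171, adjusted p = 0.32) after saline and -0.50 (limma unadjusted p = 0.019, adjusted p = 0.921) after MA. With mean age as a covariate it was -0.46, and over the 15 pools under 100 days -0.41, a choice made after the data were seen. Without the 4 arrays it was -0.44, and within lots A, B and C with D -0.55, -0.94 and 0.12, the last of the opposite sign and holding LMACT MA replicate 4. Leaving out that array alone brought the adjusted p of limma to 0.0498, and the count called over all genes from 16 to 76. Over all alternatives the adjusted p of Kcnma1 ran from 0.000691 (the array axis as a covariate) to 1 (pools under 100 days).

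**Figure D3:**
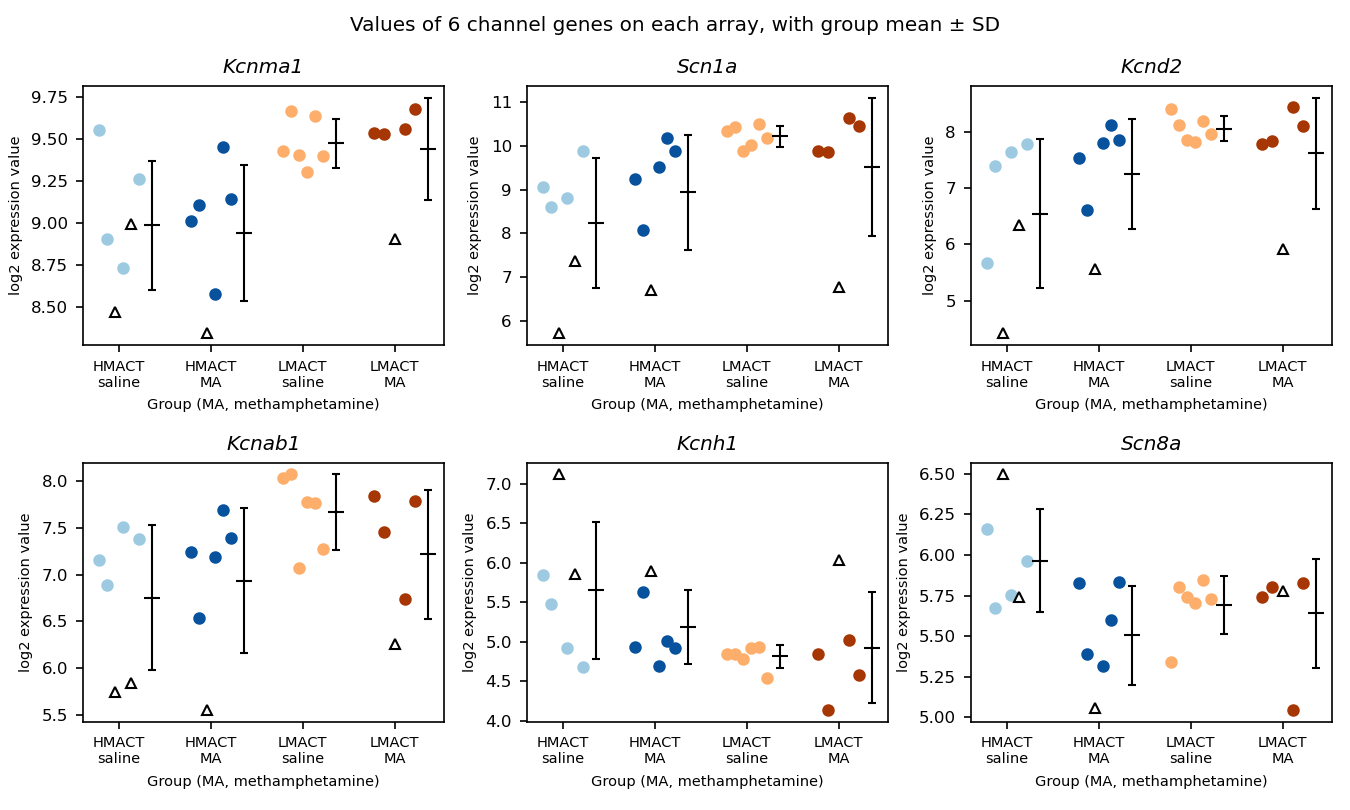
log2 expression value of 6 channel genes on each array by group (circles; white triangles, the 4 arrays that stand apart), with the group mean and SD in black. Kcnma1, Scn1a, Kcnd2 and Kcnab1 have lower HMACT means, Kcnh1 a higher one, and the lines overlap apart from Kcnd2 after saline; the triangles of Scn1a and Kcnab1 lie below all circles.

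Scn1a is a sodium pore best known from fast-spiking interneurons. Scn1a values after saline were 5.72 to 9.88 (median 8.71) in HMACT and 9.88 to 10.49 (median 10.25) in LMACT pools. After MA they were 6.71 to 10.17 (median 9.38) in HMACT pools, and 9.89, 9.85, 6.78, 10.64 and 10.46 in the 5 LMACT pools. The LMACT saline pools lay close together, and each of the other 3 groups reached down to a value under 7 on an array that stands apart. In 11 of 12 HMACT pools Scn1a was below the LMACT median, and HMACT minus LMACT was -1.28 (SE 0.518, 95% interval -2.37 to -0.20; limma unadjusted p = 0.0224, adjusted p = 0.338). It was -1.98 (limma unadjusted p = 0.012, adjusted p = 0.32) after saline and -0.59 (limma unadjusted p = 0.442, adjusted p = 1) after MA. The difference was -0.78 with age as a covariate and -0.49 in pools under 100 days, and was -0.98 without the 4 arrays, where that after saline was -1.13. Within lots A, B and C with D it was -1.87, -0.99 and 0.37. Of the interneuron markers, Pvalb (-0.87) and Gad1 (-0.27) had lower HMACT means, and Sst (0.38) and Npy (0.35) higher ones. The part of these markers in the Scn1a difference was not tested.

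Kcnd2 supplies the pore of the A-type channels of striatal dendrites. In the HMACT saline pools Kcnd2 read 4.42 to 7.79 (median 6.87), and in the HMACT methamphetamine pools 5.57 to 8.12 (median 7.66). The LMACT saline pools read 7.81 to 8.41 (median 8.04), and the 5 LMACT methamphetamine pools 7.79, 7.84, 5.92, 8.44 and 8.10. All 6 LMACT saline pools were above every HMACT saline pool, while the MA groups overlapped. It was the 1 gene of 23 without overlap of the lines after saline, against 2.94% of 5308 genes, and 0 of 23 were without overlap after MA, against 0.81%. HMACT minus LMACT was -0.94 (SE 0.399, 95% interval -1.77 to -0.11; limma unadjusted p = 0.029, adjusted p = 0.355), from -1.51 after saline and -0.37 after MA. With age as a covariate it was -0.36, in pools under 100 days -0.19 and without the 4 arrays -0.69, and with array weights -0.53. Within lots A, B and C with D it was -1.51, -0.23 and 0.36.

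Kcnab1 encodes a beta subunit that speeds inactivation of Kv channels. Across the HMACT pools Kcnab1 read 5.75 to 7.51 (median 7.02) after saline and 5.55 to 7.69 (median 7.22) after MA. Across the LMACT pools it read 7.07 to 8.07 (median 7.77) after saline, and 7.84, 7.45, 6.26, 6.74 and 7.79 on the 5 arrays after MA. All 12 HMACT pools were below the LMACT median, yet the lines overlapped. HMACT minus LMACT was -0.60 (SE 0.281, 95% interval -1.18 to -0.0099; limma unadjusted p = 0.0466, adjusted p = 0.392), and -0.34 without the 4 arrays, -0.32 with age as a covariate and -0.24 in pools under 100 days. Within lots A, B and C with D it was -0.69, -0.61 and -0.25.

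Kcnh1, an ether-a-go-go channel, had the opposite direction. Kcnh1 values after saline were 4.68 to 7.12 (median 5.66) in HMACT and 4.54 to 4.93 (median 4.85) in LMACT pools. After MA they were 4.69 to 5.89 (median 4.97) in HMACT pools, and 4.84, 4.14, 6.04, 5.03 and 4.58 in the 5 LMACT pools. HMACT saline replicate 3 was the highest of all arrays. HMACT minus LMACT was 0.55 (SE 0.25, 95% interval 0.022 to 1.07; limma unadjusted p = 0.0418, adjusted p = 0.381), with 10 of 12 HMACT pools above the LMACT median. It was 0.24 with age as a covariate, 0.074 in pools under 100 days and 0.40 without the 4 arrays. Within lots A, B and C with D it was 0.88, -0.041 and -0.05. Kcnn1, the small-conductance channel, averaged 5.33 ± 0.33, 5.24 ± 0.59, 4.69 ± 0.26 and 5.07 ± 0.68 (mean ± SD) in the HMACT saline, HMACT MA, LMACT saline and LMACT MA pools. HMACT minus LMACT for Kcnn1 was 0.41 (SE 0.201, 95% interval -0.014 to 0.83; limma unadjusted p = 0.0575, adjusted p = 0.408), with 11 of 12 HMACT pools above the LMACT median, and 0.24 with age as a covariate and 0.18 in pools under 100 days. For Kcnn1 it was 0.46, 0.76 and -0.14 within lots A, B and C with D.

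Cacng2, in the same order of groups, averaged 5.97 ± 0.55, 5.65 ± 0.24, 5.36 ± 0.60 and 5.52 ± 0.31, a line difference of 0.37 (limma unadjusted p = 0.0689, adjusted p = 0.431), and of 0.077 with age as a covariate and 0.12 with array weights. The other genes named for the lines by rank of p were Kcnj4 (0.24), Kcnk1 (0.19) and Kcnj9 (0.31). Kcnj4 averaged 2.78 ± 0.52 in HMACT and 2.54 ± 0.015 in LMACT pools, and without the 4 arrays its line difference was 0.061. Without HMACT saline replicate 3 alone it was 0.11. The Kcnk1 difference was 0.083 with age as a covariate, 0.04 in pools under 100 days, 0.38 in lot A, and 0.098 without LMACT MA replicate 5. The Kcnj9 difference was 0.15 with age as a covariate, 0.47 in pools under 100 days, 0.068 without the 4 arrays, 0.079 with array weights, and 0.20 without HMACT MA replicate 3 alone. For the L-type pore Cacna1c the difference was -0.13 (SE 0.175, 95% interval -0.50 to 0.23; limma unadjusted p = 0.459, adjusted p = 0.771), for Cacna2d3 0.034 (limma unadjusted p = 0.833, adjusted p = 1) and for Kcna1 -0.14 (limma unadjusted p = 0.331, adjusted p = 0.704). After saline alone 0 of 60 channel genes passed the adjusted threshold of limma against 0.0% of all genes, and 8 had an unadjusted p under 0.05 against 15.2%. After MA alone the counts were 0 against 0.0%, and 1, Kcnma1, against 4.29%. Cacna1g (-0.37) and Cacnb2 (0.077, and 0.026 in lot A) followed it after MA.

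**Figure D4:**
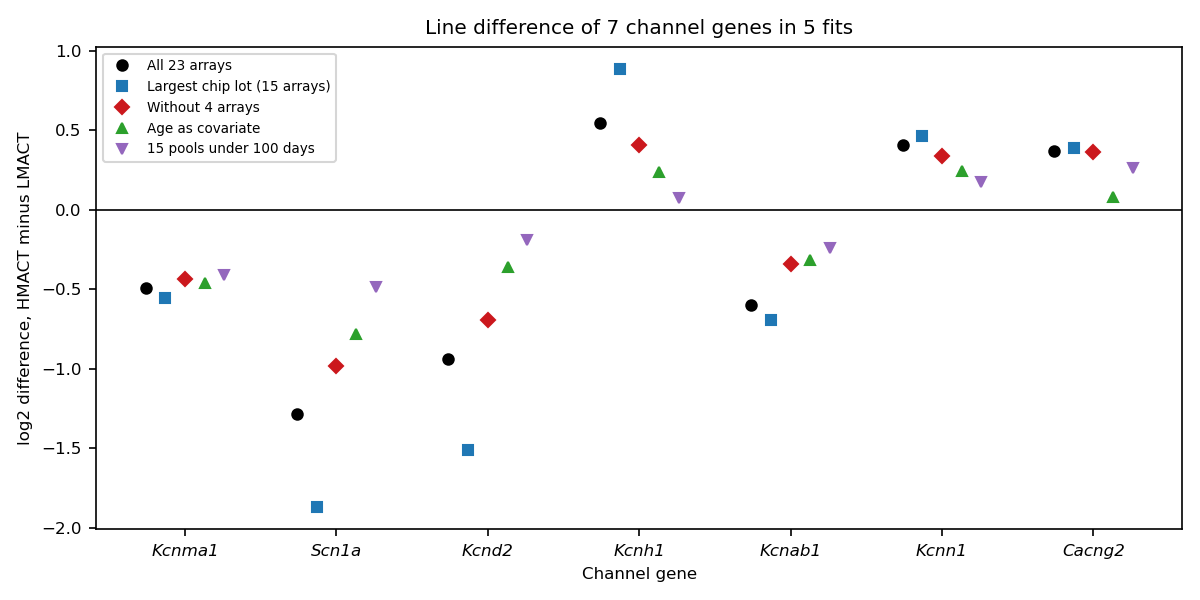
HMACT minus LMACT log2 difference of the 7 channel genes with the smallest p, in 5 fits (symbols in the key). Kcnma1 lies between -0.55 and -0.41 in all 5, while Scn1a moves from -1.28 to -0.49 and Kcnd2 from -0.94 to -0.19 when the pools are limited to those under 100 days.

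The 4 arrays that stand apart did so in channel genes as in the rest. Of 23 varying genes, 5 (21.7%) did not overlap between these 4 arrays and the other 19, against 19.1% of 5308 genes. Scn1a read 5.72 to 7.37 on the 4 and 8.08 to 10.64 on the 19, and Kcnab1 5.55 to 6.26 and 6.54 to 8.07. Both were lower on all 4. Kcnn1 read 5.63 to 6.29 against 4.25 to 5.48, Kcnh1 5.85 to 7.12 against 4.14 to 5.84, and Kcnab2 9.17 to 10.39 against 7.58 to 8.998, higher on all 4. In all, 6 genes had every one of the 4 arrays below the median of the others and 9 had every one above it. The arrays were chosen from the values of all genes, so these are descriptions without a test. The ratio of 3′ to 5′ probe sets of control transcripts, as a difference of log2 values, ran from 2.24 to 2.61 on the 4 arrays and from 2.20 to 3.38 on the others.

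**Figure D5:**
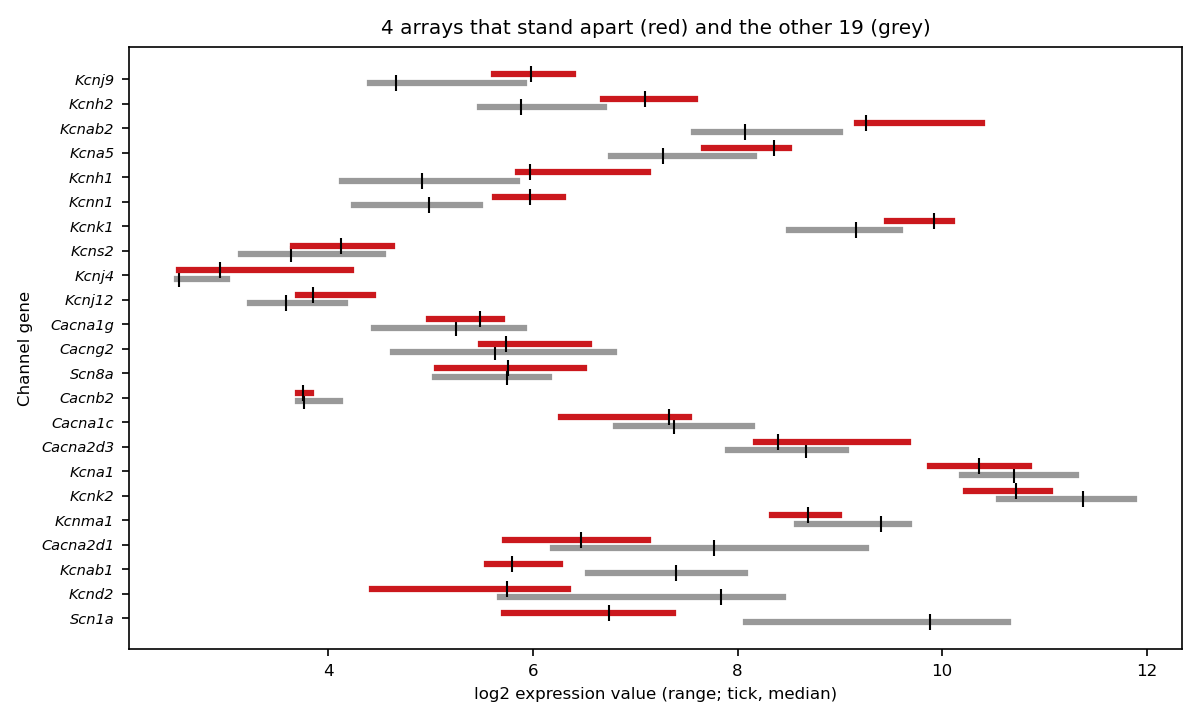
Range (bar) and median (tick) of the log2 expression value of 23 channel genes on the 4 arrays that stand apart (red) and the other 19 (grey), ordered by the difference of medians. Bars do not overlap for Kcnab2, Kcnh1 and Kcnn1 (red higher) and for Kcnab1 and Scn1a (red lower, Scn1a medians 6.74 and 9.88).

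For 5 genes a second probe set was also above the floor on all arrays, and gave the line difference a second time. For Scn1a it was -0.84 beside -1.28, and for Kcnab1 -0.19 beside -0.60. For Kcnab2 the pair was 0.43 and 0.26, and for Kcnj9 0.11 and 0.31. The second probe set of Kcnd2 read 2.47 to 2.82, close to the floor, and differed by -0.017 beside -0.94, so the Kcnd2 difference rests on 1 probe set. Kcnma1 had a single probe set.

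Among channel genes outside the symbol rule and proteins that anchor or modify channels, 37 of 59 listed genes were on the array and 26 were above the floor. With limma 0 of the 37 passed the adjusted threshold for MA or for the line. At an unadjusted p under 0.05, Gem, a small GTPase that restrains calcium channels, had a higher mean after MA by 0.38 (limma unadjusted p = 0.0465, adjusted p = 1). The chloride transporter Clcn5 (-0.35), the ryanodine receptors Ryr1 (-0.46) and Ryr3 (-0.72) and the scaffold Dlg1 (-0.55) had lower HMACT means at that threshold. The counts were 1 of the 26 for MA, against 2.26% of 5308 genes, and 4 of the 26 for the line, against 19.3%. Hcn2, a pacemaker channel, differed by 0.40 after MA (limma unadjusted p = 0.285). Higher means after MA were found for 11 of the 26, with a median of -0.028, and higher HMACT means for 11, with a median of -0.062.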

How the data were processed

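RNA from 23 pools was measured on 1 Affymetrix array each. The authors deposited log2 values, already summarised to 1 value per probe set and array; the scale was read from their range (2.23 to 16.4). Methods of normalization and summary were not given in the sources used here. The submitters' processing notes name R 2.7.1, with no role. Of 12488 probe sets, 66 controls, 396 listed with several genes and 1193 not listed were left out, which leaves 10833 and 8251 genes (1 probe set per gene, highest mean). Groups, ages, doses and chip lots came from the labels. The values were tested as deposited with R 4.3.3 and limma 3.58.1 (lmFit, eBayes; 4 group means, 7 comparisons, two-sided, Benjamini-Hochberg over 8251 genes, threshold 0.05). The code was tested on simulated data. Genes are named if called, if among the 10 smallest p for MA or line (3 in the other comparisons), as class leaders, or from a striatal list; Cacna2d3, Cacna1c, Kcna1, Kcnab2 and further channel genes are given as class leaders. Members and lists were chosen with earlier results of these data known. Alternatives covered scaling, filtering, probe sets, variance model, array weights, chip lot, age, replicate number and leaving out arrays. The number of arrays and the signal over the floor limit the precision.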

Additional observations from a re-analysis of the deposited data

Results flagged for a closer look

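In each group the highest and the lowest log2 value of the 23 varying channel genes were compared with the rest by Dixon's ratio of gap to range. Over 92 groups of values, 17 exceeded the 95% critical value, and 10 of the 17 came from arrays that stand apart. A rate of 1 in 20 (4.6) would hold for independent, normally distributed values. These genes share the first axis of variation, and some repeat values (Cacnb2 held 1 value on 9 arrays), so 17 cannot be read against it. The arrays that stand apart were chosen from values that include these, so their share of the flags is a description. HMACT saline replicate 3 (an array that stands apart) gave the extreme value of its group for Cacnb2 at 3.83 (others 3.76 to 3.77), Kcna1 at 10.02 (others 10.68 to 10.85) and Kcnj4 at 4.22 (others 2.52 to 3.01). HMACT methamphetamine replicate 3 (an array that stands apart) gave the extreme value of its group for Kcna1 at 9.89 (others 10.64 to 10.88), Kcnj4 at 3.32 (others 2.52 to 2.56) and Kcnj9 at 6.06 (others 4.52 to 5.002). LMACT saline replicate 1 gave the extreme value of its group for Scn8a at 5.34 (others 5.70 to 5.85). LMACT saline replicate 2 gave the extreme value of its group for Cacnb2 at 3.89 (others 3.77 to 3.77) and Kcnk2 at 11.72 (others 11.27 to 11.42). LMACT saline replicate 6 gave the extreme value of its group for Kcnab2 at 7.62 (others 8.03 to 8.10). LMACT methamphetamine replicate 2 gave the extreme value of its group for Cacna1c at 8.14 (others 7.31 to 7.53) and Cacng2 at 4.98 (others 5.62 to 5.69). LMACT methamphetamine replicate 4 (an array that stands apart) gave the extreme value of its group for Kcnd2 at 5.92 (others 7.79 to 8.44), Kcnj4 at 2.57 (others 2.53 to 2.53), Kcnma1 at 8.91 (others 9.53 to 9.67) and Scn1a at 6.78 (others 9.85 to 10.64). LMACT methamphetamine replicate 5 gave the extreme value of its group for Scn8a at 5.05 (others 5.74 to 5.83).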

How the results depend on the processing

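In 259 of 266 repeats (7 comparisons, 38 alternatives) limma called 0 channel genes, as with all arrays. All 266 medians over the 26 measured genes moved by less than 1 SD of the array medians. That SD was 0.16, more than the distance of any of the 7 medians from 0, so it cannot show that a sign held. Without 1 array the median ran from -0.020 to 0.011 for MA and from -0.0021 to 0.092 for MA in LMACT. For the lines after MA it ran from -0.13 to 0.0037. With the array axis as a covariate 2 of 60 channel genes were called for MA in LMACT, beside 193 of all 8251 genes, and 2 for the interaction, beside 322. For the mean line difference 6 were called, beside 1353, and for the lines after saline 8, beside 1623. That axis was computed from the same residuals, which shrinks the errors by construction and leaves the differences as they were. Array weights gave 3 of 60 for the mean line difference, beside 830 of all genes, and 2 after saline, beside 236. Leaving out 1 array gave 0 to 1 for the mean line difference (1, Kcnma1, without LMACT MA replicate 4, beside 76 of all genes), and 0 in the other 6 comparisons. For the mean line difference the count over all genes was 16, and 830 with array weights, 1353 with the axis, 32 when only the 5308 genes above the floor were tested, 24 after quantile normalization, 25 after median centring, 1 in lot A, 1 with age as a covariate, 1 in pools under 100 days, 46 without the 4 arrays and 9 to 76 without 1 array; the causes were not tested. For MA it was 2, and 6 with array weights and 7 with the axis, 4 with the random replicate block, 0 in lot A, 1 under 100 days, 5 without the 4 arrays and 2 to 5 without 1 array. For MA in HMACT it was 1, and 2 with weights, 6 with the axis, 0 in lot A or with only the groups compared, 3 without the 4 arrays and 1 to 2 without 1 array. For MA in LMACT it was 0, and 31 with weights, 193 with the axis, 1 after median centring, above the floor, with the random replicate block, with only the groups compared, under 100 days or without the 4 arrays, and 0 to 2 without 1 array. For the interaction it was 0, and 322 with the axis. For the lines after saline it was 0, and 236 with weights, 1623 with the axis, 1 with only the groups compared or without the 4 arrays and 0 to 2 without 1 array; after MA it was 0, and 136 with weights, 27 with the axis, 5 after median centring, 1 after quantile normalization, 3 without the 4 arrays and 0 to 3 without 1 array. Signs turned for Kcnn1 after MA (-0.058 with array weights, -0.032 under 100 days), for Cacna2d1 (0.097 and 0.21) and for Kcnj4 (-0.18 to 0.019 without 1 array, positive without HMACT saline replicate 3), and Kcnj8 in HMACT was 0.00 under 100 days; the cause was not tested.

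Same-numbered pools of a line deviated from their group means with correlations from -0.618 to 0.876 over the 5308 genes, over 0.1 in 8 of 11 pairs. The labels put 10 of the 11 pairs in 1 chip lot and give 4 the same mean age within 1 day, but do not say what the number marks, so it was not used to pair the pools. With the number as a replicate block, fixed or random, 0 channel genes were called in each of the 7 comparisons, and for the mean line difference 15 and 13 of all genes.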
